A study of Mus musculus with 10 samples.

Results

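B cell genes were followed in whole lung and in lung squamous cell carcinoma (SCC) of mice. The set held 9 genes of the B lymphocyte lineage, Cd79a, Cd79b, Ms4a1, Pax5, Blk, Cd22, Fcrla, Jchain and Tnfrsf13c, out of 19096 genes that had a named probe on the arrays. They were chosen by name, with earlier results of these data known. A gene with several probes was read from the probe with the highest mean over all 10 arrays. The study asked which genes differ once Lkb1, a tumour suppressor kinase, is lost from the airway epithelium and a squamous tumour forms. The WT group was 5 whole lungs of mice labelled wild type that carried floxed Lkb1 alleles (Lkb1f/f). The SCC group was 5 whole lung tumours of CCSPiCreLkb1f/f mice, in which Cre is made under the CCSP promoter, active in airway epithelial cells, so that B cells were not the cells targeted. All mice were labelled as strain B6.129, which the study's methods write as a mixed background, 13 months old and without further treatment. The labels do not say that every array came from a separate mouse, so p-values measure the spread between these arrays.

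B cells recognise antigen through a membrane immunoglobulin that signals through the CD79A and CD79B chains, whose cytoplasmic tyrosine motifs are phosphorylated by SRC family kinases such as BLK. A mature B cell carries CD20 (Ms4a1), the inhibitory lectin CD22 and the BAFF receptor (Tnfrsf13c), which passes a survival signal, and its identity is held by the transcription factor PAX5. A B cell that matures into an antibody-secreting plasma cell loses most of these surface proteins and makes J chain, which joins IgA or IgM into polymers and lets them be carried across mucosal epithelium, as in the airways. RNA of whole tissue was measured, so fewer B cells and less RNA per B cell cannot be told apart.

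Values were log2 normalized fluorescence intensities, and a difference was SCC minus WT, so that 1 unit is 2-fold. A probe was called where limma gave an adjusted p below 0.05 over all 30374 tested probes together with at least a 2-fold difference. Between 71.0% and 74.3% of probes were well above background on 9 arrays, and 90.2% on SCC replicate 5. The mean of 6 squamous markers was 3.86 to 4.43 in WT and 10.27 to 14.18 in SCC. Of these markers Dsg3, Sprr1b and Pkp1 were not well above background on any WT array. SCC replicate 2 was the lowest tumour, at 10.27 against 13.78 to 14.18 on the others. The floxed gene was not analysed here, since no probe was paired with it. Of the 3 slides only slide 2 held both groups, WT replicate 5 beside SCC replicates 1 to 3. The other lungs shared slide 1 and the other tumours slide 3.

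Promoter sequence was held for 6 of the 9 genes, and 4 are shown because they set genes that fell in SCC beside genes that did not pass the test. Each runs from 250 bases before to 50 bases after the gene's start in RefSeq, build GRCm38.p6, 5′ to 3′ on the gene's own strand. No array value was placed by these coordinates. Cd79a (chr7:24897247-24897546, plus strand) and Fcrla (chr1:170927534-170927833, minus strand) were lower in SCC, whereas Cd22 (chr7:30878979-30879278, minus strand) and Jchain (chr5:88527848-88528147, minus strand) were not. Capitals mark a match on either strand to 3 motifs of B cell transcription factors, the octamer ATTTGCAT read by OCT factors, an EBF1-like core CCCNNGGG, and GAGGAA, a core read by PU.1 and its relative SPIB.
Cd79a: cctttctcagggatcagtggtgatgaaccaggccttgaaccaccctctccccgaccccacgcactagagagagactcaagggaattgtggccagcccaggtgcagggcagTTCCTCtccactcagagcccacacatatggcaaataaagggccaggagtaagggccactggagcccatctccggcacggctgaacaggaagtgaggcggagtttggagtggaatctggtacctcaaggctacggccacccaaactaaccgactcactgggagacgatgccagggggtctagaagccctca
Fcrla: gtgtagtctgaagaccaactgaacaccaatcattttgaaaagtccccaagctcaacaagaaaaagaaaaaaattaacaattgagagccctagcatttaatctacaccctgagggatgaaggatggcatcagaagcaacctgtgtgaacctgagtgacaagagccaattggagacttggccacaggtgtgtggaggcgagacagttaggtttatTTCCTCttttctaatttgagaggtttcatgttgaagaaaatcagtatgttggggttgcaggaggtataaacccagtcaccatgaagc
Cd22: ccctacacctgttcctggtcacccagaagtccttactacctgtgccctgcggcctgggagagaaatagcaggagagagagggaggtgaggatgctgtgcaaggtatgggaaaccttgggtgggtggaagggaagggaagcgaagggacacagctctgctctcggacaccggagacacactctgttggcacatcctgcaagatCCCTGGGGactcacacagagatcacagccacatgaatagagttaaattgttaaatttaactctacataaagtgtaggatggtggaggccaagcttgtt
Jchain: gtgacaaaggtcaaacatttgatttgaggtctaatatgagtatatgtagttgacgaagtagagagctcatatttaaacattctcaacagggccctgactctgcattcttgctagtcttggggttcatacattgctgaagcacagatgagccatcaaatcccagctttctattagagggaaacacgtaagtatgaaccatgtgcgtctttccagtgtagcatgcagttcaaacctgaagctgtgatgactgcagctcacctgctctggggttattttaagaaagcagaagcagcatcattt
The Cd79a and Fcrla promoters each held 1 match to GAGGAA, on the opposite strand, first base at position -140 and -37 from the start. The Cd22 promoter held 1 match to CCCNNGGG at position -48. The Jchain promoter shown and those of Pax5 and Tnfrsf13c held no match to these letters. Of 32851 promoters of the same length, 28.3% held GAGGAA, 13.7% held CCCNNGGG and 1.74% held ATTTGCAT. The matches were too few to set genes that fell apart from the others, and they are a description of letters only. A search for exact letters misses sites spelled otherwise, so a promoter without a match may still hold a site.

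Among the 8 B cell genes that could be tested, 5 fell in SCC, Cd79a, Cd79b, Ms4a1, Fcrla and Tnfrsf13c, and none rose by limma, nor was any of the 8 higher at an unadjusted p below 0.05, where 25.4% of all tested probes were higher and 30.6% lower. Across all tested probes 13.0% were called lower and 9.92% higher. For the same 5 genes every SCC array lay below every WT array, which held for 20.9% of all tested probes. The median difference of the 8 genes was -1.63, and that of all tested probes was -0.09. The 8 genes include Blk, which entered the test through WT alone. The largest difference among the members was that of Ms4a1, 6.86-fold, followed by Tnfrsf13c, 5.39-fold. Blk, Cd22 and Jchain were not called, and Pax5 was too dim to be tested.

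**Figure D1:**
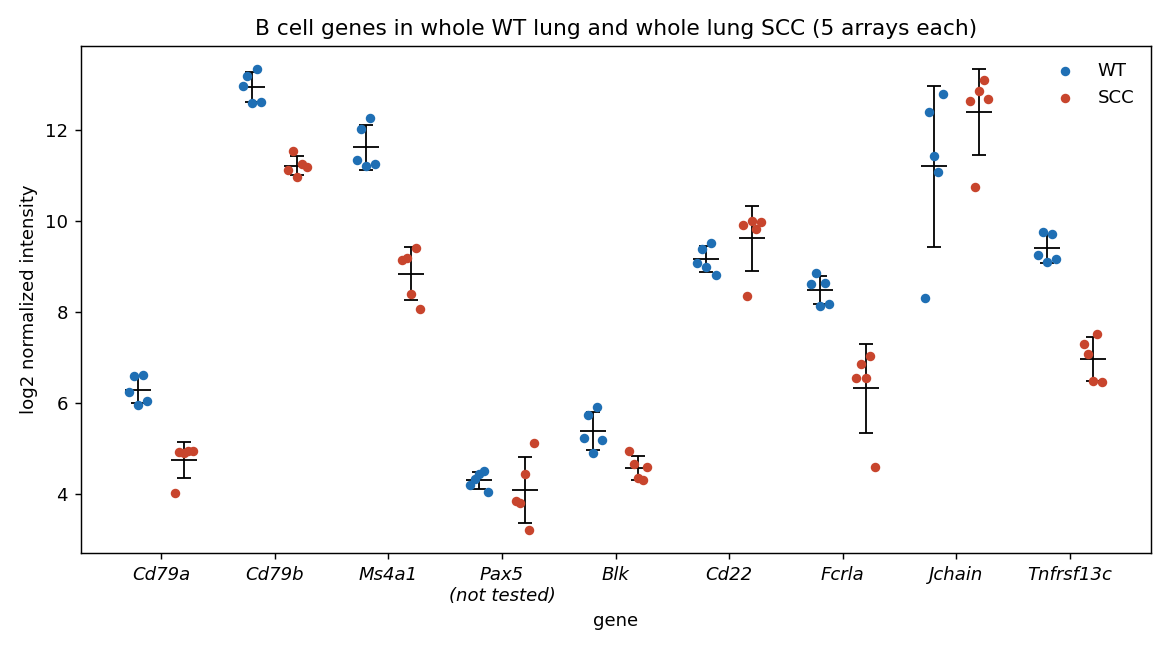
Log2 normalized intensity (y axis) of the 9 B cell genes on each of 5 WT arrays (blue) and 5 SCC arrays (red); points are arrays, bars the mean ± SD. Cd79a, Cd79b, Ms4a1, Fcrla and Tnfrsf13c show groups that do not overlap, Cd22 and Jchain overlap, and Jchain in WT runs from 8.31 to 12.80.

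Both genes of the receptor's signalling pair fell. Cd79b read 12.96, 13.18, 12.60, 13.34 and 12.62 on WT replicates 1 to 5 and 11.13, 11.55, 10.97, 11.26 and 11.19 on SCC replicates 1 to 5. Every tumour was below every lung. Cd79b fell by 1.72 (SE 0.17, limma adjusted p = 4.64e-05), which is 3.29-fold. Cd79a read 6.25, 6.6, 5.97, 6.61 and 6.05 in WT and 4.03, 4.93, 4.90, 4.95 and 4.94 in SCC. Its probe was dim, was not well above background on 1 SCC array, and its 4 other tumour values lay within a narrow band. Cd79a fell by 1.55 (SE 0.21, limma adjusted p = 3e-04), or 2.93-fold. The call for Cd79a was lost when arrays were scaled to their 75th percentile (difference -1.23, adjusted p = 0.0595) and when the local background was modelled with normexp (difference -0.57, where that of Cd79b was -1.66).

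Blk, the kinase that acts on this pair, read 5.24, 5.73, 4.90, 5.92 and 5.20 in WT and 4.95, 4.67, 4.35, 4.31 and 4.59 in SCC. The groups overlapped at WT replicate 3 and SCC replicate 1, and the probe was well above background on 5 WT arrays and 3 SCC arrays. It entered the test through WT alone, the group where it was high, so its values are a description that supports no direction. The difference of -0.82 (SE 0.21, limma adjusted p = 0.00946) was 1.77-fold, short of the 2-fold required for a call. By adjusted p alone 26.6% of all tested probes were lower and 22.4% higher.

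The largest differences were those of Ms4a1 and Tnfrsf13c. Ms4a1, the gene of CD20, read 11.35, 12.02, 11.21, 12.27 and 11.26 in WT and 9.15, 9.18, 8.40, 9.42 and 8.07 in SCC. The highest tumour stayed below the lowest lung by a wide margin. Ms4a1 fell by 2.78 (SE 0.31, limma adjusted p = 9e-05). Tnfrsf13c, the receptor for the survival factor BAFF, read 9.26, 9.76, 9.10, 9.71 and 9.17 in WT and 7.30, 7.07, 6.49, 7.52 and 6.46 in SCC. Again the groups stood well apart. Tnfrsf13c fell by 2.43 (SE 0.24, limma adjusted p = 4.4e-05).

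Fcrla, an Fc receptor-like protein kept inside B cells, read 8.61, 8.85, 8.13, 8.63 and 8.18 in WT and 6.55, 6.87, 6.56, 7.03 and 4.60 in SCC. SCC replicate 5, the array with the largest share of probes above background, was far below the other tumours. Fcrla fell by 2.16 (SE 0.42, limma adjusted p = 0.0023), and without that array it fell by 1.73 (adjusted p = 8.79e-05). On slide 2 alone the differences were -2.35 for Ms4a1, -2.22 for Tnfrsf13c, -1.52 for Fcrla, -1.43 for Cd79a and -1.40 for Cd79b. With slide as a fixed block the calls for Fcrla (adjusted p = 0.223) and Cd79a (adjusted p = 0.0532) were lost, and the other 3 genes passed.

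Cd22, the lectin that recruits phosphatases to dampen the receptor, did not follow. It read 9.08, 9.39, 9.0, 9.51 and 8.81 in WT and 9.91, 8.36, 10.01, 9.82 and 9.99 in SCC. In SCC, 4 tumours lay above every lung and SCC replicate 2 below every lung. The difference was 0.46 (95% interval -0.25 to 1.17, limma adjusted p = 0.25), and without SCC replicate 2 it was 0.77 (adjusted p = 0.00168), still under 2-fold. A second Cd22 probe was well above background on 2 SCC arrays and no WT array and was not tested. The interval of the tested probe reached neither the fall of Cd79b nor that of Ms4a1.

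Macrophage, neutrophil and general leukocyte markers were low on SCC replicate 2 as Cd22 was, and T cell and plasmacytoid dendritic cell markers were not. The mean of the T cell markers was 7.70 on that array and 6.97 to 7.96 on the other tumours, and that of the plasmacytoid markers was 9.32, the highest among the tumours. The mean of the 7 markers of all leukocytes was 12.22 to 12.57 in WT, 11.50 on SCC replicate 2 and 12.43 to 12.55 on the other tumours. The mean of 7 macrophage markers was 12.65 to 13.18 in WT, 12.65 on SCC replicate 2 and 13.69 to 13.86 on the other tumours. The mean of the neutrophil markers, of which 7 of 8 could be tested, was 9.37 to 10.54 in WT, 9.10 on SCC replicate 2 and 11.36 to 11.58 on the other tumours. Of the tested genes, 2 of 7 macrophage and 3 of 7 neutrophil markers were called higher in SCC, where 9.92% of all tested probes were, and none lower. The macrophage list was mixed, with Csf1r at -0.50 (limma adjusted p = 0.00517) and Marco at -0.75 (limma adjusted p = 0.0199), both under 2-fold. None of the 5 genes that fell had its lowest value on SCC replicate 2. The part of these cells in the Cd22 value was not tested.

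**Figure D2:**
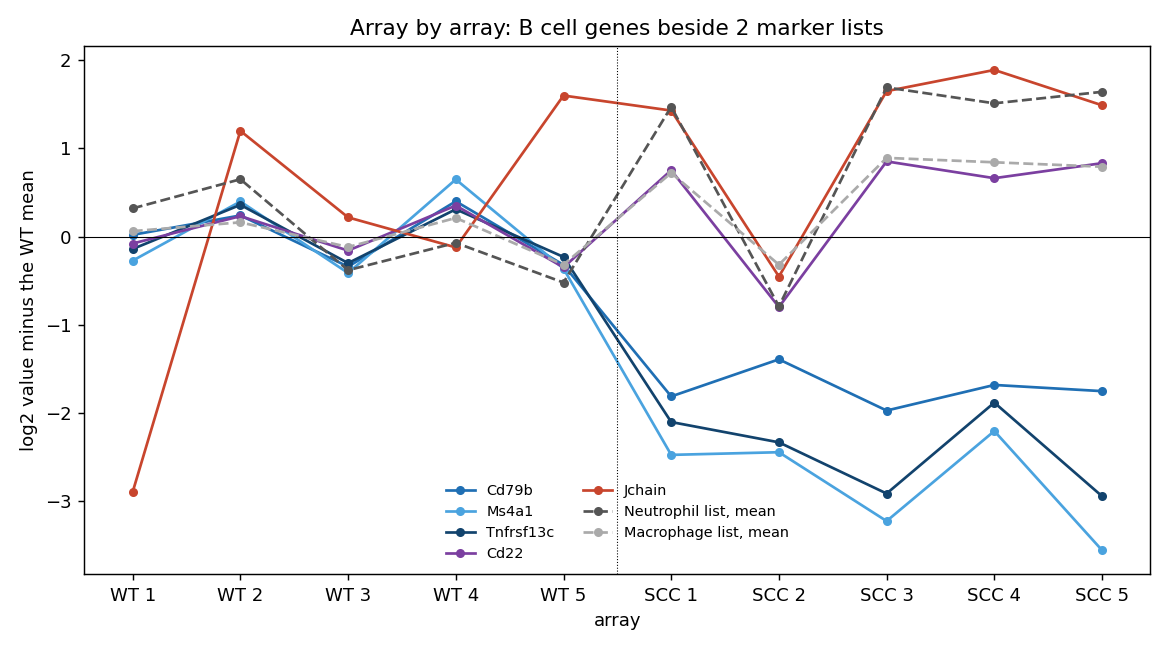
Log2 value minus the WT mean (y axis) on each array (x axis; 5 WT, then 5 SCC) for 5 B cell genes (solid lines) and for the means of the neutrophil and macrophage marker lists (dashed). Cd79b, Ms4a1 and Tnfrsf13c are low on all 5 tumours; Cd22 and Jchain are high on 4 tumours and low on SCC replicate 2, where both lists are low too.

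Jchain, the plasma cell product, was the most variable member among the WT lungs. It read 8.31, 12.40, 11.42, 11.08 and 12.80 in WT and 12.63, 10.75, 12.85, 13.09 and 12.69 in SCC. WT replicate 1 was far below the other lungs, SCC replicate 2 was below the other tumours, and the groups overlapped. The difference was 1.20 (SE 0.81, 95% interval -0.61 to 3.00, limma adjusted p = 0.243). It was 0.47 without WT replicate 1, -0.72 with slide as a fixed block, which rests on 1 WT array, and 1.23 with slide as a random block (limma adjusted p = 0.221), so its sign was not settled. The second Jchain probe showed the same order of arrays at its extremes, from 7.24 on WT replicate 1 to 11.90 on SCC replicate 4, with a difference of 1.02 (adjusted p = 0.307).

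Pax5, the factor that keeps B cell identity, read 4.20, 4.33, 4.45, 4.51 and 4.05 in WT and 3.84, 3.81, 4.45, 3.21 and 5.13 in SCC. On 9 arrays these values lay around the lowest signal that counted as well above background, 3.81 to 4.32. On SCC replicate 5 that lowest signal was 2.14 and Pax5 read 5.13. The probe was well above background on 2 WT arrays and 1 SCC array, so a change in Pax5 was not detectable with it.

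**Figure D3:**
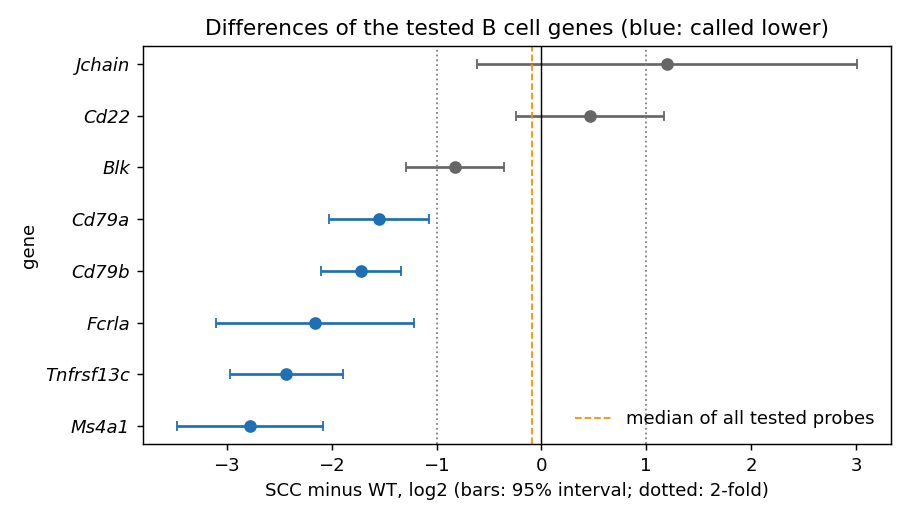
Difference between SCC and WT on the log2 scale (x axis) for the 8 tested B cell genes; points are limma estimates over 5 arrays a group, bars 95% intervals, dotted lines 2-fold, the dashed line the median of all tested probes at -0.09. The 5 blue genes lie between -1.55 and -2.78, and the intervals of Cd22 and Jchain include 0.

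The members shared an order among the WT lungs. In 7 of the 8 tested genes, all but Jchain, WT replicates 2 and 4 held the highest values of the 5 lungs, and across all tested probes the same was true of 12.1%. Other leukocyte lists shared this order in part. The mean of the 7 markers of all leukocytes was also highest on these arrays, 12.31, 12.53, 12.22, 12.57 and 12.22 on WT replicates 1 to 5, and so was that of the macrophage markers, 13.03, 13.13, 12.85, 13.18 and 12.65. The T cell markers were highest on WT replicates 4 and 1 (9.38 and 9.14), the neutrophil markers on 2 and 1 (10.54 and 10.21) and the plasmacytoid markers on 2 and 3 (9.84 and 9.76). The order was not tested. Cxcl13, the chemokine that draws B cells into follicles, was also highest on WT replicates 4 and 2, at 11.61 and 11.13, and ranged down to 7.93 on WT replicate 1. It is named here after its values were seen, and its difference between groups was -1.26 (limma adjusted p = 0.154).

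Comparisons of 2 genes on the same array asked whether members changed by unequal amounts, with an exact two-sided permutation test whose smallest possible p was 0.00794 and adjustment over 4 comparisons. Jchain minus Ms4a1 was -3.04, 0.38, 0.22, -1.19 and 1.54 in WT and 3.47, 1.57, 4.45, 3.67 and 4.62 in SCC. All tumours were higher than all lungs, although SCC replicate 2 and WT replicate 5 nearly met. The difference between groups was 3.98 (WT -0.42 ± 1.75, SCC 3.56 ± 1.21, SD, n = 5 each, exact permutation adjusted p = 0.0106). On slide 2 alone it was 1.63.

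For the receptor chains the result depended on the setting. Cd79a minus Cd79b was -6.64 ± 0.071 in WT and -6.48 ± 0.41 in SCC (SD, n = 5 each), a difference of 0.17 (exact permutation p = 0.429). Without SCC replicate 1, where Cd79a was lowest, it was 0.33 (exact permutation adjusted p = 0.0238), and after normexp 1.09 (adjusted p = 0.0159). Cd79a was also set against Ptprc, the gene of the leukocyte antigen CD45. That difference was -7.19 ± 0.21 in WT and -8.19 ± 0.65 in SCC (SD, n = 5 each), so that Cd79a was lower relative to Ptprc by 1.00 (exact permutation adjusted p = 0.0106). The value was -0.04 after normexp and -0.74 with 75th percentile scaling, both without a call, and -1.17 with Cd79b in place of Cd79a (adjusted p = 0.0212), a change chosen after the values were seen. Ptprc itself differed by -0.55 (limma adjusted p = 0.0223), under 2-fold. Of the 7 markers of all leukocytes 4 differed below 0 and 1 was called higher, where 9.92% of all tested probes were. That marker was Cd53, at 1.03 (limma adjusted p = 0.0231), and Cd79a was not set against markers of this list other than Ptprc.

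The comparison with T cells depended on the T cell gene. Cd79a minus Cd3e, a chain of the T cell receptor complex, was -0.40 ± 0.25 in WT and -1.87 ± 0.37 in SCC (SD, n = 5 each), a difference of -1.47 (exact permutation adjusted p = 0.0106). The Cd3e probe differed by only -0.08 (limma adjusted p = 0.556), at levels of 6.42 to 6.82 on all arrays. Its partner chains Cd3d and Cd3g fell by 1.36 (Cd3d) and fell by 1.44 (Cd3g), and with them in place of Cd3e the contrast was -0.19 (exact permutation adjusted p = 0.635) and -0.11 (adjusted p = 0.817), as chosen after the values were seen. Of 11 tested T cell markers 9 were called lower, where 13.0% of all tested probes were, and their median difference was -1.37. Cd8a at -2.48, Cd247 at -2.46 and Cd28 at -2.0 were among them, and Cd3e and Cd4 (0.19) were the markers not called. SCC replicate 5 lay far below the other tumours for Cd247 (4.90 against 6.73 to 8.04) and Cd28 (2.50 against 4.74 to 5.16). An unequal change of Cd79a and T cell genes thus passed the test against Cd3e and did not pass it against Cd3d or Cd3g.

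**Figure D4:**
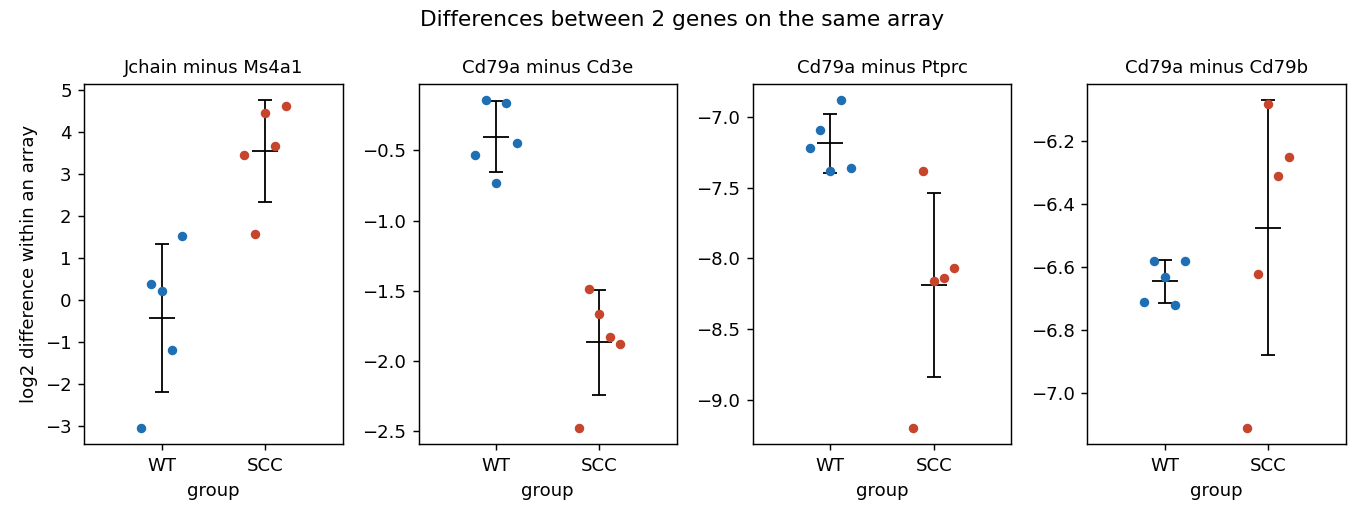
Log2 difference between 2 genes on the same array (y axis, its own range in each panel) for 5 WT (blue) and 5 SCC arrays (red), with mean ± SD in black. Jchain minus Ms4a1 rises from a mean of -0.42 to 3.56, and Cd79a minus Cd79b overlaps between groups.

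The other genes of the pathway were described from 4 lists, 81 genes in all, of which 75 could be tested. Of these, 19 were called lower, beside 13.0% of all tested probes, and 8 higher, beside 9.92%, and their median difference was -0.30. The lists differed in direction, and their members are not exclusive to B cells. In the survival and trafficking list 8 of 15 fell, where 13.0% of all tested probes did, and none rose, median -1.19, and at an unadjusted p below 0.05 by limma 10 were lower and 0 higher, against 30.6% lower and 25.4% higher of all tested probes. S1pr1, the sphingosine phosphate receptor that guides lymphocyte exit and is abundant in endothelium, fell by 2.42, and Cxcr5, the follicle homing receptor, fell by 2.25. Ccr7, the lymph node homing receptor, fell by 1.99, and Cxcl12, a stromal chemokine, fell by 1.77. Of 7 endothelial markers 6 were called lower, where 13.0% of all tested probes were, with list means of 14.06 to 14.31 in WT and 11.73 to 12.78 in SCC, and the part of endothelium in the S1pr1 value was not tested.

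In the list of lineage factors and surface proteins 7 of 23 fell, beside the same 13.0%, and none rose, median -0.48, and at an unadjusted p below 0.05 by limma 13 were lower and 0 higher, against the same shares of 30.6% and 25.4%. Vpreb3, a protein associated with the immature receptor of precursor B cells, read 13.10, 12.81, 12.57, 12.79 and 13.71 in WT and 10.31, 10.82, 9.73, 11.09 and 9.92 in SCC, and fell by 2.62 (limma adjusted p = 0.000102). Ebf1, a B lineage factor that is also active in stromal cells, fell by 2.11, and Spib, an ETS factor of B cells and plasmacytoid dendritic cells, fell by 1.86. Fcrl1, an Fc receptor-like surface protein, fell by 1.66. SCC replicate 5 lay far below the other tumours for Ebf1 (5.04 against 6.59 to 7.33) and Fcrl1 (2.87 against 5.28 to 5.75). Of the plasmacytoid markers, 2 of 5 were called lower, where 13.0% of all tested probes were, and 1 of these, Siglech, was well above background on 2 SCC arrays and entered the test through WT alone. This list had means of 9.64 to 9.84 in WT and 8.38 to 9.32 in SCC.

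In the receptor signalling list 3 of 23 genes were called lower, Cr2 among them, and 4 higher, median 0.28. Across all tested probes 13.0% were called lower and 9.92% higher. At an unadjusted p below 0.05 by limma 5 were lower and 8 higher, against shares of 30.6% and 25.4%. Cr2, a complement receptor, read 7.79, 8.0, 7.59, 8.0 and 7.29 in WT and 5.29, 6.07, 3.81, 4.57 and 5.06 in SCC. Its probe was well above background on 3 SCC arrays and entered the test through WT alone. Its difference of -2.77 is therefore a description that supports no direction. Bank1, a B cell scaffold protein, fell by 2.14 (limma adjusted p = 1e-04).

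The 4 that rose were Fcgr2b at 2.05, Blnk at 2.01, Malt1 at 1.75 and Syk at 1.05, of which all but Fcgr2b are named after their values were seen. They encode an inhibitory Fc receptor, an adaptor, a paracaspase and a kinase, and FCGR2B and SYK are well known from myeloid cells too. Blnk read 11.97, 12.38, 11.87, 12.36 and 12.18 in WT and 14.63, 11.95, 14.75, 14.70 and 14.76 in SCC, so that only SCC replicate 2 lay within the WT range. Fcgr2b, Malt1 and Syk were likewise lowest among tumours on SCC replicate 2. On that array the macrophage, neutrophil and squamous lists were lowest among tumours, and the endothelial list was highest (12.78). The part of any of these cells in the values was not tested.

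Among germinal centre and plasma cell genes 1 of 14 fell and 4 rose, median 0.38, where 13.0% of all tested probes fell and 9.92% rose. At an unadjusted p below 0.05 by limma 3 of them were lower and 6 higher, against shares of 30.6% and 25.4%. Fcamr, an Fc receptor for IgA and IgM, rose by 2.97, and Pigr, the epithelial receptor that carries J chain-bearing antibody into secretions, rose by 2.95. Sdc1, a proteoglycan of plasma cells and of squamous epithelium, rose by 1.72, and Derl3, an endoplasmic reticulum protein of secretory cells, by 1.37. Fkbp11, a chaperone of secretory cells, fell by 1.22. The plasma cell factors Irf4 (-0.90), Prdm1 (0.49) and Xbp1 (0.50) and the antibody chaperone Mzb1 (-0.46) were not called, and are named after their values were seen. Pigr was highest on SCC replicate 2, at 14.63, where Jchain was lowest among tumours. Of immunoglobulin genes only Igll1 had a named probe, which was too dim to be tested, so antibody genes were not analysed here.

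**Figure D5:**
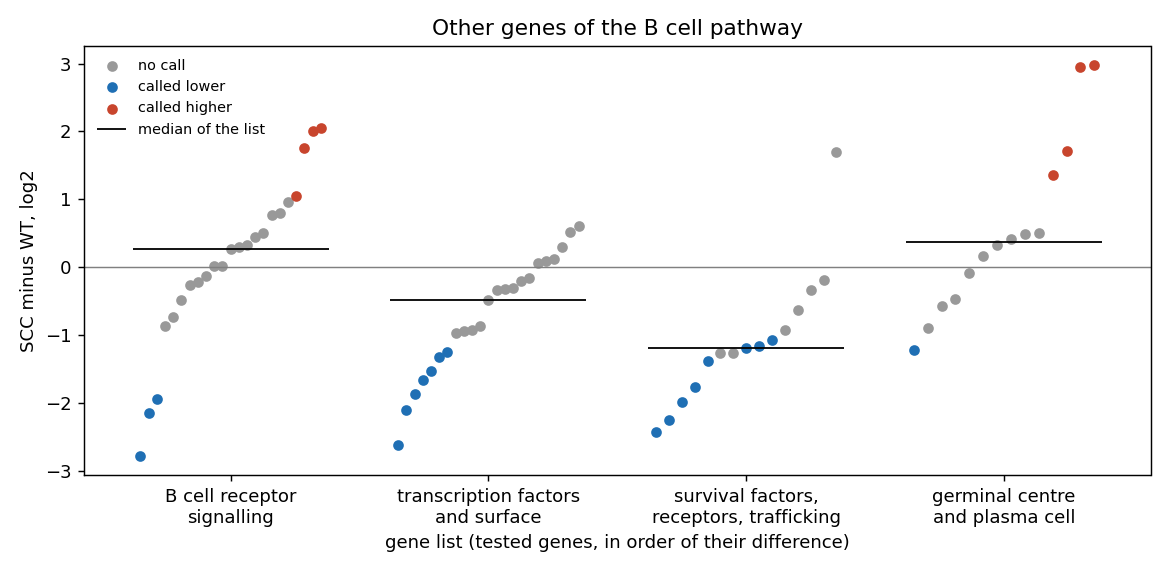
Difference between SCC and WT on the log2 scale (y axis) for the tested genes of 4 B cell pathway lists (x axis, genes in order of their difference); blue points were called lower, red higher, grey neither, and black lines are list medians. The trafficking list has its median at -1.19 and no gene called higher, whereas signalling and plasma cell lists hold genes in both directions.

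The genes most like the members were found by the root-mean-square distance, over the 10 arrays, between a gene's centred profile and the mean centred profile of the tested members other than Jchain. This profile falls in SCC by construction and is highest on WT replicates 2 and 4. Neither the fall nor this WT order in the genes found is therefore a result. Bfsp2, a lens filament gene, was nearest at 0.096 log2 units, followed by Zcchc18 (0.17), Traf3ip3 (0.18), Arhgef3, Tespa1, H2-Oa, Arhgap15, Chst7, Dll4 and Cep112 (0.21). H2-Oa encodes a chain of the class II cofactor made in B cells, and Dll4 is a Notch ligand of endothelium. Bfsp2 read 6.77, 7.14, 6.37, 7.41 and 6.70 in WT and 5.49, 5.39, 5.26, 5.50 and 5.07 in SCC, with WT replicates 2 and 4 highest as in the members. By the same distance Cd79b lay at 0.195, Cd22 at 1.13 and Jchain at 1.89. Cd79b and Cd22 are part of the mean profile and Jchain is not, so these distances are no independent ranking.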

How the data were processed

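Total RNA of whole lungs and whole lung tumours was labelled with Cy3 and hybridised singly to Agilent mouse arrays. The authors deposited scanner tables with spot intensity from Agilent Feature Extraction 12, per the labels, and a table of log2 values that matched log2 quantile-normalized processed intensity of the same arrays (r of at least 0.9999). The methods name quantile normalization, log2 and ANOVA. Here log2 processed intensity was averaged over the unflagged, non-control spots of each of 41174 probes and quantile-normalized. A probe was tested where well above background on at least 4 of 5 arrays of a group (30374 probes). limma 3.58.1 in R 4.3.3 (lmFit, eBayes, two-sided, no covariates) was used with Benjamini-Hochberg adjustment.

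Symbols came from RefSeq accessions (GRCm38.p6) and were found for 28223 probes (68.5%). Single contrasts used exact permutation of the arrays. The members and lists were chosen with earlier results of these data known. Genes named were all members, the called genes of each list (the 4 largest without overlap where over 5 were called), contrast genes and the 10 most like genes. Csf1r, Marco and the genes marked so were named after their values were seen. Called macrophage, neutrophil and endothelial markers were counted and not named. Figures were drawn with matplotlib. Alternatives were 75th percentile scaling, the deposited log2 table, normexp (offset 50, on median spot signal in place of the mean signal first planned), other filters and probes, slide and replicate number as blocks, array weights, a one-way ANOVA of both groups as the methods name (at an unadjusted p below 0.01 set here, and after Benjamini-Hochberg), and leaving out arrays. No protein sequence was printed. Some listed genes that were counted are not reported here by name. The fit was tested on simulated data. Any 2 arrays differed with an SD of at least 0.30 on the log2 scale at 184 repeatedly spotted probes, whose spots on one array had a median SD of at most 0.11, so no 2 arrays were taken as the same library. Intensities carry no counts, and 5 arrays a group limit the precision.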

Additional observations from a re-analysis of the deposited data

Results flagged for a closer look

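In 4 of 26 groups of 5 arrays examined (each member and each contrast in WT and in SCC), 1 array stood far from the others, judged by its gap to the nearest divided by the range, where values above 0.71 are unusual at the 5% level. About 1 in 20 groups would be expected by chance. Cd79a in SCC had a gap share of 0.944, with SCC replicate 1 at 4.03 and the nearest at 4.90. Cd22 in SCC had 0.887, with SCC replicate 2 at 8.36 and the nearest at 9.82. Jchain in SCC had 0.805, with the same array at 10.75 and the nearest at 12.63. Fcrla in SCC had 0.803, with SCC replicate 5 at 4.60 and the nearest at 6.55.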

How the results depend on the processing

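The count of 5 members called lower held under leaving out each array (5 to 5). Under the other alternatives it lay between 4 and 6, except with slide as a fixed block, where it was 3. The sixth was Blk, by adjusted p alone, which entered the test through WT alone and supports no direction. The 27 calls in the pathway lists ranged from 26 to 30 on leaving out an array. They were 8 with slide as a fixed block (7 lower, 1 higher), where only 1 WT array shares a slide with tumours, and 44 by adjusted p alone (31 lower, 13 higher, against 26.6% lower and 22.4% higher of all tested probes). The share of all tested probes called with slide as a fixed block is not given here. The drops to 3 members and 8 list genes therefore cannot be set against all probes. With slide as a fixed block Jchain turned to -0.72 (adjusted p = 0.781) and Cd79a minus Cd79b to -0.026 (exact permutation p = 1). Under that block Jchain minus Ms4a1 was 1.63, also the value within slide 2, Cd79a minus Cd3e -1.43 and Cd79a minus Ptprc -0.89, where the smallest possible p was 0.25.

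With replicate number as a block the same contrasts kept their values, 3.98, -1.47 and -1.0 (exact permutation adjusted p = 0.0833, smallest p possible 0.0625), Cd79a minus Cd79b was 0.17, and 5 members and 26 list genes were called. Deviations of same-numbered arrays correlated at -0.10 to 0.01, which gave no sign of pairing and cannot exclude it. Cd79a minus Ptprc was -0.74 with 75th percentile scaling (adjusted p = 0.317) and -0.042 with normexp (adjusted p = 0.794). Cd79a minus Cd79b was 1.09 with normexp (adjusted p = 0.0159). Cd3d or Cd3g in place of Cd3e, chosen after seeing the data, gave -0.19 and -0.11. On leaving out each array Jchain minus Ms4a1 ranged from 3.32 to 4.47, Cd79a minus Cd3e from -1.56 to -1.32, Cd79a minus Ptprc from -1.21 to -0.75, and Cd79a minus Cd79b from 0.069 to 0.33. Scaling to the 75th percentile moved the median of all tested probes by 0.12. The causes were not tested. Dim probes (Cd79a, Blk, Pax5) were limited by signal over background.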
